A study of Mus musculus with 8 samples.

Results

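The 7 genes described here move zinc, manganese and copper across liver cell membranes or hold these metals inside the cell. They are the metallothioneins Mt1 and Mt2, the exporters Slc30a1 and Slc30a10, the importers Slc39a8 and Slc39a14, and the copper pump Atp7b. They were chosen by symbol, with their levels in these libraries already known, and all 7 were found among the 27453 genes in the deposited tables. All 7 also passed the filter on low counts, which kept 6759 genes. Their differences between groups and sexes are therefore given as a description, with values, folds and standard errors (SE). How many members passed a threshold in each contrast is printed once beside the share of all genes, and nothing is read from those counts. Tests are given for measures that the choice did not use, namely read length and the shares of transcripts within a gene. Tests are also given for other metal genes and for further lists of genes. Those lists were chosen with earlier results of these data known, so their p-values are not independent of that choice.

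Polyadenylated RNA of 8 mouse livers was read by nanopore direct RNA sequencing, in which each native RNA molecule gives a read that starts at its 3′ end. The mice were of the inbred strain C57BL/6JN and each library came from a different animal. Of the 4 libraries titled O, replicates 3 and 4 were female and replicates 1 and 2 male, and the 4 libraries titled Y had the same layout. In the age field the O-titled animals stand at 12 weeks and the Y-titled animals at 80 weeks. The series text puts young mice at some 2 months and old mice at some 18 months, and a treatment label that names the old group stands on all 8 libraries. The groups are therefore named by title letter, no age is assigned to either, and every group fold is O-titled over Y-titled. The comparison of interest to the series is age, and sex divides each group into 2 females and 2 males.

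Metallothioneins are small cysteine-rich proteins that bind zinc, copper and cadmium. Their genes are switched on by the zinc-sensing factor MTF1, which binds metal response elements, and in liver also by glucocorticoids and by interleukin-6. Slc30a1 (ZnT1) exports zinc across the plasma membrane and is another target of MTF1. Slc39a8 (ZIP8) and Slc39a14 (ZIP14) bring zinc, manganese and iron into hepatocytes, Slc30a10 exports manganese, and Atp7b delivers copper to ceruloplasmin and to bile.

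The promoters of the 4 members on which the results turn most are shown with their matches to the metal response element, which MTF1 is known to bind at the metallothionein genes and Slc30a1. Sequences were taken from RefSeq and run 5′ to 3′ from 250 to 15 bases before the annotated start, and capitals mark the core of the metal response element, searched as TGCACNC and TGCGCNC on both strands.
Mt1, GRCm38.p6 chr8:94178839-94179074, plus strand: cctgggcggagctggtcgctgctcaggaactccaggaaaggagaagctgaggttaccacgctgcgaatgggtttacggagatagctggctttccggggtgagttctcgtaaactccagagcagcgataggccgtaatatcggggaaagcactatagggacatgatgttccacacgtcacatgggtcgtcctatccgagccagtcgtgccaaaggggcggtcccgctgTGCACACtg
Mt2, GRCm38.p6 chr8:94172368-94172603, plus strand: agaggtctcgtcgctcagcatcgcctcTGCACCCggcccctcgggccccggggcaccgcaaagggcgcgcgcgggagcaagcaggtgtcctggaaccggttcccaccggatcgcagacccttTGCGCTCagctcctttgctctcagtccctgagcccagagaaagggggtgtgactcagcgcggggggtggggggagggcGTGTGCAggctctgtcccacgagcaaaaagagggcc
Slc30a1, GRCm38.p6 chr1:191906531-191906766, plus strand: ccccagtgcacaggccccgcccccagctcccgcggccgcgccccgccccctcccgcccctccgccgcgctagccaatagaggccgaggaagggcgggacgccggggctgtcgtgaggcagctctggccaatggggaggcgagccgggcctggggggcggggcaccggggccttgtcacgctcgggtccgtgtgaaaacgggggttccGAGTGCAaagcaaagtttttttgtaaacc
Slc30a10, GRCm38.p6 chr1:185454598-185454833, plus strand: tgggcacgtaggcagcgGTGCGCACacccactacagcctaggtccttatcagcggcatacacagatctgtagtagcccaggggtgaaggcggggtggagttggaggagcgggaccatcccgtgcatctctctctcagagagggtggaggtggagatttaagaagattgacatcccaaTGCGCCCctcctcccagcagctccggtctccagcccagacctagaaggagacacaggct
The search itself covered 300 bases, through base 50 after the start, and matches that overlapped were counted once. Mt2 held 4 matches, Mt1 held 3, and Slc30a1 and Slc30a10 held 2 each, of which the lines above show 3, 1, 1 and 2 in the same order of genes. The other matches of Mt1 lie just after its RefSeq start in a stretch of 25 bases at chr8:94179091-94179115, TGCACTCcgcccgaaaagTGCGCTC, again with the matches in capitals. That stretch lies inside the first exon of the transcript Mt1-201, which starts at 94179082, and upstream of the annotated starts of Mt1-203 at 94179211 and Mt1-202 at 94179241. Atp7b held 1 match, and of the 2 windows listed for Slc39a8 1 held 1 match and the other 0. Of all 32851 mouse promoters of the same length, 25.7% held at least 1 match, 6.14% at least 2, 1.31% at least 3 and 0.295% at least 4. A match is a string of letters and not a measured binding site. The table of promoters matched 6 of the 7 members; Slc39a14 is named only.

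The metallothioneins are neighbours on chromosome 8 of mm10, with Mt2 (ENSMUSG00000031762) at 94172664 to 94173568 and Mt1 (ENSMUSG00000031765) at 94179082 to 94180327, both on the plus strand. Levels are in CPM (counts-per-million), taken over reads of tested genes after TMM scaling of the libraries. Mt1 had 1625 and 2059.7 CPM in O-titled females and 407 and 110.2 CPM in O-titled males, against 299 and 588 CPM in Y-titled females and 138 and 380.1 CPM in Y-titled males. The O-titled females stood above all 6 other livers, while the O-titled males lay within or below the range of the Y-titled livers, so the title groups overlapped. Mt1 averaged 1051 ± 939 CPM in O-titled livers and 351 ± 187 CPM in Y-titled livers (SD, n = 4 each). The fitted log2 fold was 1.10 (SE 0.74) over all 8 libraries, 2.06 (SE 0.87) within females and 0.09 (SE 0.87) within males. The reads behind these values numbered 5955 in the O-titled and 1391 in the Y-titled libraries.

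Mt2 had 569.5 and 560.1 CPM in O-titled females and 121 and 34.9 CPM in O-titled males, against 47.8 and 353 CPM in Y-titled females and 37.1 and 127 CPM in Y-titled males. As with Mt1, both O-titled females were above every other liver and the O-titled male replicate 2 was the lowest of all 8. The means were 321 ± 283 CPM in O-titled livers and 141 ± 147 CPM in Y-titled livers (SD, n = 4 each), and the log2 fold was 0.95 (SE 0.83). The highest library exceeded the lowest 18.7-fold for Mt1 and 16.3-fold for Mt2, a wider range than that of any other member. Livers of the same title group and sex also differed, by 7.38 times for Mt2 between the Y-titled females and by 3.46 times between the O-titled males.

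**Figure D1:**
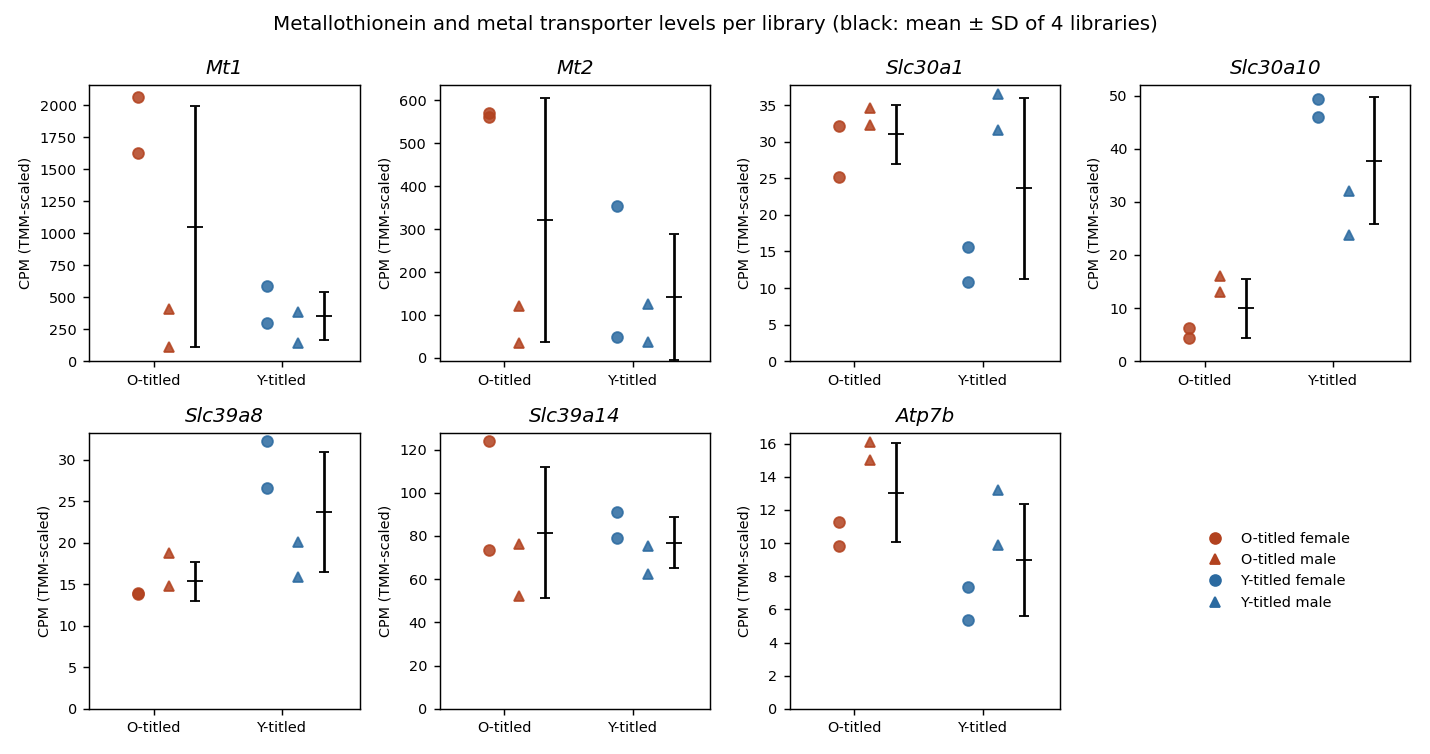
Level of each member in every library, in TMM-scaled CPM on the vertical axis, with O-titled livers left of Y-titled livers, circles for females, triangles for males and black bars for the mean ± SD of 4 libraries. Mt1 and Mt2 are highest in the 2 O-titled females, and Slc30a10 is the member whose title groups do not overlap.

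Between the sexes, Mt1 averaged 1143 ± 835 CPM in females and 259 ± 156 CPM in males, with a female over male log2 fold of 1.84 (SE 0.75), and Mt2 averaged 383 ± 245 CPM in females and 79.9 ± 50.7 CPM in males, with a log2 fold of 2.17 (SE 0.85) (SD, n = 4 each). Females and males overlapped for both genes. The sum of the Kupffer cell and macrophage markers, all 12 of which had reads, ran from 540 to 1631 CPM of mapped reads in O-titled and from 635 to 795 CPM in Y-titled livers. O-titled replicates 1, 3 and 4 had 1511, 1631 and 1216 CPM of these markers and replicate 2 had 540 CPM, so the library lowest in the metallothioneins was also lowest in these markers. The part of macrophage RNA in the metallothionein values was not tested. In bulk liver, fewer cells of a type and less RNA per cell cannot be told apart.

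Mt1 and Mt2 code for closely related proteins. Each nanopore read counts 1 molecule, and the transcripts Mt1-201 and Mt2-201 have annotated lengths of 549 and 511 bases. Mt2 made up 25.9% of the metallothionein reads in O-titled female replicate 3 (95% Wilson interval 24.3 to 27.7) and 21.4% in replicate 4 (20.1 to 22.7). The O-titled males had 22.9% (20.7 to 25.2) and 24.1% (17.0 to 32.9). In Y-titled females the share was 13.8% in replicate 3 (10.7 to 17.6) and 37.5% in replicate 4 (34.6 to 40.5), and in Y-titled males it was 21.2% (16.8 to 26.4) and 25.0% (20.1 to 30.6). The mean share was 23.6% ± 1.93 in O-titled and 24.4% ± 9.91 in Y-titled livers (SD, n = 4 each). The share lay between 21.2% and 25.9% in 6 livers, and the 2 Y-titled females lay on either side of them with intervals that did not touch each other. The intervals cover counting error only, and how reads that match both genes were assigned is not given in the sources used here.

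**Figure D2:**
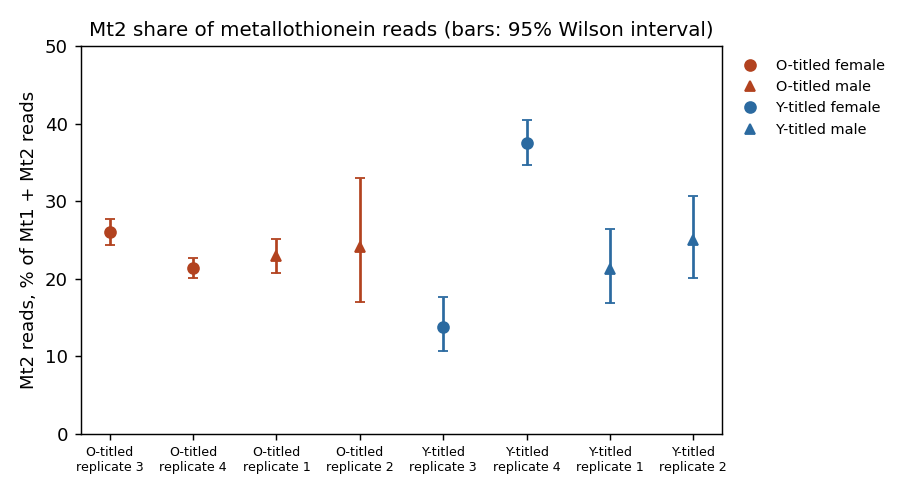
Mt2 reads as a percentage of Mt1 and Mt2 reads in each library, with bars for the 95% Wilson interval and O-titled libraries left of Y-titled ones. The Y-titled females lie at 13.8% and 37.5%, and the other 6 livers between 21.2% and 25.9%.

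The 3 transcripts listed for Mt1 took nearly equal shares. Mt1-201 with 3 exons had 32.2% of all Mt1 reads, Mt1-203 with 2 exons 35.7% and Mt1-202 with 1 exon 32.1%. Their annotated lengths of 549, 633 and 1085 bases differ, whereas the reads assigned to them averaged 463, 463 and 478 bases. The length of a read therefore did not follow the length of the transcript it was counted on, and a split of the same molecules among the 3 models cannot be told apart from real isoforms. Mt1-201 had 34.4% ± 4.003 of the Mt1 reads in O-titled and 31.1% ± 5.84 in Y-titled livers, Mt1-202 31.4% ± 1.84 and 33.5% ± 7.54, and Mt1-203 34.1% ± 4.17 and 35.5% ± 4.39, each given as O-titled and then Y-titled share (SD, n = 4 each). Transcript usage of Mt1 did not pass the diffSpliceDGE test of edgeR (Simes adjusted p = 0.9998 over 1236 genes). In that test 0 genes passed and 8 (0.647%) had an unadjusted p under 0.05. If the Mt1 shares are only a split of the same molecules, the test cannot show a change of isoforms, so no conclusion is drawn from it. Mt2-201 had 96.4% of the Mt2 reads. Mt1 was the only member with at least 2 transcripts above the count filter.

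Slc30a10 showed the widest separation between the title groups. The gene (ENSMUSG00000026614, chromosome 1, 185454848 to 185468762, plus strand) encodes a plasma membrane exporter of manganese. It had 4.34 and 6.30 CPM in O-titled females and 13.1 and 16.1 CPM in O-titled males, against 45.9 and 49.4 CPM in Y-titled females and 32.1 and 23.8 CPM in Y-titled males. Every O-titled liver was below every Y-titled liver, which 4.62% of the tested genes also showed. The means were 9.96 ± 5.56 CPM in O-titled livers and 37.8 ± 12.0 CPM in Y-titled livers (SD, n = 4 each), and the log2 fold was -1.95 (SE 0.33). Within females the log2 fold was -3.11 (SE 0.34), and within males it was -1.08 (SE 0.30). The O-titled females had the lowest levels of all and the Y-titled females the highest, so the female over male log2 fold over both title groups was 0.06. These values rest on 60 reads in O-titled and 168 in Y-titled libraries, with 5 and 9 reads in the O-titled females.

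Among the 7 members, Slc30a10 alone passed an adjusted p of 0.05 for O-titled against Y-titled livers by edgeR, as it did by DESeq2 and limma voom, beside 4.01% of all 6759 genes tested and 1.92% in the lower direction. Because the members were chosen with their levels over title group and sex known, nothing is read from this or the following counts. Between the sexes 0 of 7 members passed, beside 2.96% of all genes, by edgeR, DESeq2 and voom, and 4 had an unadjusted p under 0.05, while Slc30a1 passed in edgeR with no count filter and without O-titled replicate 3. Within females edgeR called Slc30a10, Slc30a1 and Slc39a8, beside 5.47% of all genes, DESeq2 called Slc30a10 and voom called Slc30a10 and Slc39a8. Within males 0 of 7 passed, beside 1.26% of all genes, with 1 at an unadjusted p under 0.05 in edgeR and 0 calls by the other tools. The difference of the title fold between females and males passed for 0 of 7 members by each of the 3 tools, beside 0.385% of all genes by edgeR, and 3 members had an unadjusted p under 0.05 for it, while Slc30a10 passed in edgeR with no count filter.

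**Figure D3:**
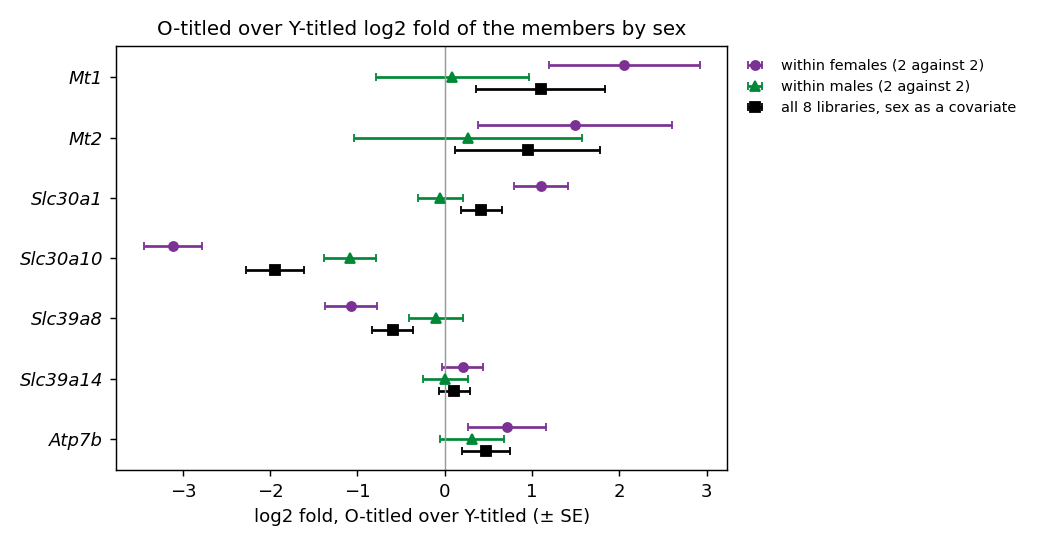
Log2 fold of O-titled over Y-titled livers for each member (horizontal axis, bars ± SE), within females, within males and over all 8 libraries. Slc30a10 lies at -3.11 in females and -1.08 in males, and Mt1 at 2.06 and 0.09.

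Slc30a1 (ENSMUSG00000037434, chromosome 1, 191906767 to 191913247, plus strand), the zinc exporter of the plasma membrane, had 32.1 and 25.2 CPM in O-titled females and 34.6 and 32.2 CPM in O-titled males, against 15.6 and 10.8 CPM in Y-titled females and 36.5 and 31.7 CPM in Y-titled males. The Y-titled females were the lowest livers, and the other 6 lay between 25.2 and 36.5 CPM. The means were 31.0 ± 4.05 CPM in O-titled livers and 23.6 ± 12.4 CPM in Y-titled livers (SD, n = 4 each), with a log2 fold of 0.42 (SE 0.23). The log2 fold was 1.10 (SE 0.31) within females and -0.05 (SE 0.25) within males. Females averaged 20.9 ± 9.57 CPM and males 33.8 ± 2.23 CPM. The same O-titled females thus had higher values than the Y-titled females for Slc30a1 and for Mt1, while the males of the title groups overlapped for both.

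Slc39a8 (ENSMUSG00000053897, chromosome 3, 135825279 to 135888572, plus strand), an importer of zinc and manganese, had 13.9 and 14.002 CPM in O-titled females and 18.8 and 14.8 CPM in O-titled males, against 26.6 and 32.3 CPM in Y-titled females and 20.1 and 15.8 CPM in Y-titled males. The groups overlapped through the males. The means were 15.4 ± 2.34 CPM in O-titled livers and 23.7 ± 7.24 CPM in Y-titled livers (SD, n = 4 each), with a log2 fold of -0.60 (SE 0.24), which was -1.08 (SE 0.30) within females and -0.10 (SE 0.31) within males. The Y-titled females, lowest in Slc30a1, were highest in Slc39a8. The gene has 4 listed transcripts with the same coding length of 1386 bases, and its 201 reads were spread over them with 42, 47, 47 and 65 reads.

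Slc39a14 (ENSMUSG00000022094, chromosome 14, 70303469 to 70351425, minus strand) imports zinc, manganese and iron and is known to be induced in liver by interleukin-6. It had 124 and 73.5 CPM in O-titled females and 76.1 and 52.4 CPM in O-titled males, against 90.9 and 79.0 CPM in Y-titled females and 62.3 and 75.2 CPM in Y-titled males. The groups overlapped throughout, and their means were 81.5 ± 30.3 CPM in O-titled livers and 76.9 ± 11.8 CPM in Y-titled livers (SD, n = 4 each; log2 fold 0.11, SE 0.17). Females averaged 91.9 ± 22.7 CPM and males 66.5 ± 11.3 CPM, with a log2 fold of 0.45 (SE 0.17). O-titled female replicate 3, the highest library for Slc39a14, was also the highest for Mt2, with 569.5 CPM. O-titled female replicate 4, with 560.1 CPM of Mt2 and the highest Mt1, had 73.5 CPM of Slc39a14, within the range of the Y-titled livers. Of its reads 96.4% were on Slc39a14-202, the longest of its 3 listed transcripts.

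Atp7b (ENSMUSG00000006567, chromosome 8, 21992785 to 22060305, minus strand) is the copper-transporting ATPase whose loss causes Wilson disease in humans. It had 11.3 and 9.80 CPM in O-titled females and 15.0 and 16.1 CPM in O-titled males, against 7.35 and 5.39 CPM in Y-titled females and 13.2 and 9.90 CPM in Y-titled males. Within each sex both O-titled livers were above both Y-titled livers, and across the sexes the groups overlapped. How many of all tested genes show such an order within each sex was not counted. The means were 13.1 ± 2.99 CPM in O-titled livers and 8.96 ± 3.38 CPM in Y-titled livers (SD, n = 4 each), with a log2 fold of 0.47 (SE 0.27). Females averaged 8.46 ± 2.61 CPM and males 13.6 ± 2.72 CPM. Its 118 reads over 8 libraries make it the member with the fewest reads, and 5 to 8 reads stand behind 3 of the Y-titled values.

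Read length was compared as a measure that the choice of members did not use. Mt1 reads averaged 470.8 ± 6.80 bases in O-titled and 469.7 ± 5.59 bases in Y-titled livers, and Mt2 reads 456 ± 7.27 and 455 ± 6.33 bases (SD, n = 4 each). Mean read length was 85.7% of the annotated length of Mt1-201 and 89.2% of that of Mt2-201. Mt1-203, of 633 bases, had more of the Mt1 reads than Mt1-201. Read length is not aligned length, as reads counted on Mt2-202, of 388 bases, averaged 519 bases. For the transporters, mean read length was from 30.7% of the length of the most-read transcript for Atp7b to 55.3% for Slc39a8. Slc30a1 reads averaged 1507 ± 122 bases in O-titled and 1757 ± 280 bases in Y-titled livers, and Slc30a10 reads 1795 ± 80.4 and 1967 ± 411 bases. Exact permutation tests, two-sided and with 70 ways to divide the libraries, cannot give a p below 0.0286 and gave p between 0.143 and 0.914 for the 7 members and adjusted p between 0.733 and 0.914. A difference in read length was therefore not detected for any member at this number of libraries.

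**Figure D4:**
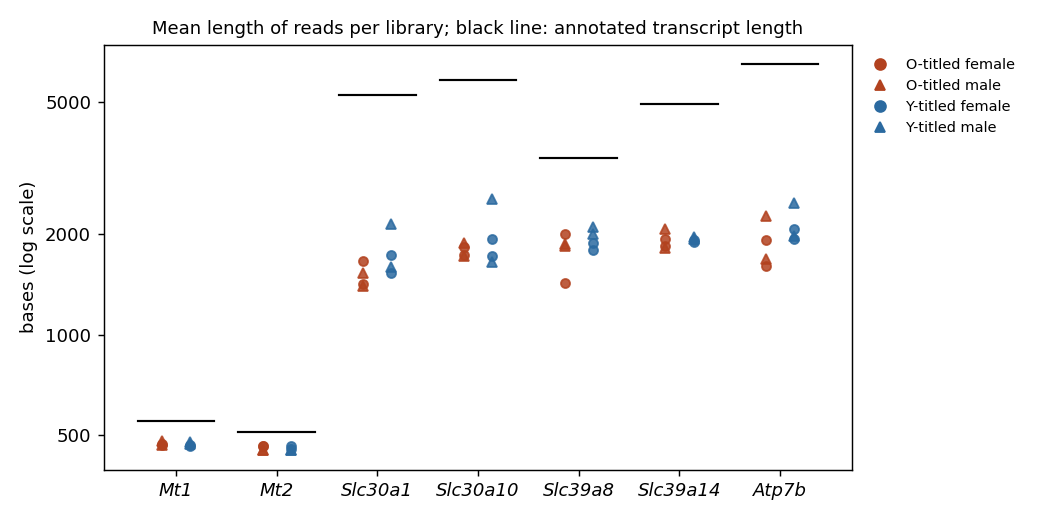
Mean length of the reads of each member in every library (points, logarithmic axis in bases), O-titled left of Y-titled, with black lines at the annotated length of the member's main transcript. Mean length was 85.7% of the line for Mt1, 89.2% for Mt2 and between 30.7% and 55.3% for the transporters.

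Genes whose levels followed each member most closely over the 8 libraries were ranked by Pearson's r of log2 CPM, as a description with no test, since the libraries share depth, sex and title group. Mt1 followed Plk3 (r = 0.963), Mt2 (0.952) and Asna1 (0.941), so that the other metallothionein ranked second of all tested genes for Mt1. Mt2 followed Mt1 (0.952), Ppt1 (0.941) and Rars2 (0.930). The nearest genes to Slc30a10 were Rnf144b (0.987), Fabp1 (0.986) and Tubb2a (0.985), and those to Slc30a1 were Cirbp (0.983), Lzts3 (0.959) and Eva1a (0.9499). For Slc39a8 they were Hsd17b2 (0.971), Srp72 (0.946) and Ccdc90b (0.934), and for Atp7b Prpsap1 (0.949), Rsrc2 (0.946) and Paqr7 (0.943). Genes near Slc39a14 included Cct5 (0.955) and Hint1 (0.936). The metallothioneins were the only members found among each other's 3 nearest genes.

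The other zinc transporters were read from the rest of their families. Of 8 further Slc30 exporters 4 were tested. By edgeR 0 passed between O-titled and Y-titled livers, beside 4.01% of all genes, and 0 had an unadjusted p under 0.05. DESeq2 and voom called 0, and the median log2 fold was -0.07, beside -0.00 over all genes tested. Slc30a9, which carries zinc out of mitochondria, had 31.6 ± 3.804 CPM in O-titled livers and 31.0 ± 6.07 CPM in Y-titled livers, and Slc30a5, Slc30a6 and Slc30a7, which load zinc into the secretory pathway, had means of 22.4, 9.93 and 11.9 CPM in O-titled livers and 22.9, 14.3 and 14.8 CPM in Y-titled livers. Of 12 further Slc39 importers 5 were tested, and by edgeR 0 were higher and 1 was lower, beside 2.09% and 1.92% of all genes (2 at an unadjusted p under 0.05; 1 by DESeq2 and by voom; median log2 fold 0.11).

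The importer that fell was Slc39a4 (ZIP4), best known for zinc uptake in the intestine. It had 26.9 and 36.4 CPM in O-titled females and 22.3 and 10.7 CPM in O-titled males, against 56.0 and 61.0 CPM in Y-titled females and 42.8 and 67.3 CPM in Y-titled males. No O-titled liver reached the lowest Y-titled one, as for 4.62% of tested genes in that direction and 8.71% in either direction. Slc39a4 averaged 24.1 ± 10.7 CPM in O-titled livers and 56.8 ± 10.4 CPM in Y-titled livers (SD, n = 4 each; log2 fold -1.12, SE 0.21; edgeR adjusted p = 0.00452), and the same call was made within males (log2 fold -1.42, SE 0.30; edgeR adjusted p = 0.0195) and not within females (-0.87, SE 0.27; edgeR adjusted p = 0.0717). The difference between the sexes did not pass for Slc39a4 (edgeR adjusted p = 0.800). Thinned to equal depth, Slc39a4 did not pass (log2 fold -0.99, edgeR adjusted p = 0.0736). Slc39a1 (ZIP1) had 53.2 ± 7.44 CPM in O-titled livers and 36.6 ± 6.53 CPM in Y-titled livers without passing (log2 fold 0.50, edgeR adjusted p = 0.132), and within females it passed (0.81, SE 0.23; edgeR adjusted p = 0.0462) by edgeR but by neither DESeq2 nor voom. Slc39a7, Slc39a9 and Slc39a11 had means of 62.2, 20.6 and 18.7 CPM in O-titled livers and 64.0, 18.4 and 13.5 CPM in Y-titled livers and did not pass.

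Of 20 other copper-handling genes 14 were tested, and 1 rose and 1 fell by each of edgeR, DESeq2 and voom (median log2 fold -0.01), beside 2.09% of all tested genes that were higher and 1.92% that were lower. Steap4, a reductase of copper and iron at the cell surface and endosomes, rose to 190.1 and 127 CPM in O-titled females and 166 and 126 CPM in O-titled males, against 102 and 95.1 CPM in Y-titled females and 76.2 and 79.2 CPM in Y-titled males (log2 fold 0.81, SE 0.15; edgeR adjusted p = 0.00370). It also passed within females (0.68, SE 0.20; edgeR adjusted p = 0.0490) and within males (0.95, SE 0.21; edgeR adjusted p = 0.0262), where voom called it within males alone and DESeq2 in neither sex. Sco2, which inserts copper into cytochrome c oxidase in mitochondria, fell to 13.9 and 14.002 CPM in O-titled females and 15.0 and 16.1 CPM in O-titled males, against 26.6 and 27.8 CPM in Y-titled females and 33.4 and 31.7 CPM in Y-titled males (log2 fold -1.03, SE 0.19; edgeR adjusted p = 0.00446). For both genes all O-titled livers lay on the same side of all Y-titled livers, as for 8.71% of tested genes in either direction. Sco2 did not pass when thinned to equal depth (log2 fold -0.88, edgeR adjusted p = 0.0995).

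The most abundant copper genes did not pass. Sod1, the copper and zinc superoxide dismutase, had 1320.4 ± 144 CPM in O-titled livers and 1358 ± 46.9 CPM in Y-titled livers, and Cp, the ceruloplasmin that Atp7b loads with copper, had 602 ± 101 CPM in O-titled livers and 519 ± 67.1 CPM in Y-titled livers. The copper chaperones Atox1, which hands copper to Atp7b, and Ccs, which serves Sod1, had means of 257 and 182 CPM in O-titled livers and 239 and 195 CPM in Y-titled livers. Between the sexes Cox19, a mitochondrial protein of cytochrome c oxidase assembly, was lower in females, with 33.8 ± 5.15 CPM against 51.9 ± 15.0 CPM in males (log2 fold -0.62, SE 0.16; edgeR adjusted p = 0.0460). That call was lost in 9 of 12 alternatives, with DESeq2 and with any 1 of the 8 libraries left out, where adjusted p reached 0.206. Of 7 genes of manganese handling and manganese enzymes all 7 were tested. Between the title groups 0 passed by edgeR, beside 4.01% of all genes, and 0 had an unadjusted p under 0.05. DESeq2 and voom called 0, and the median log2 fold was 0.09. Arg1, the manganese enzyme of the urea cycle, had 1628 ± 135 CPM in O-titled livers and 1432 ± 210.5 CPM in Y-titled livers. The mitochondrial superoxide dismutase Sod2 had 194 ± 16.1 CPM in O-titled livers and 201 ± 16.6 CPM in Y-titled livers, and the iron and manganese exporter Slc40a1 had 121 ± 6.09 CPM in O-titled livers and 104 ± 16.7 CPM in Y-titled livers.

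**Figure D5:**
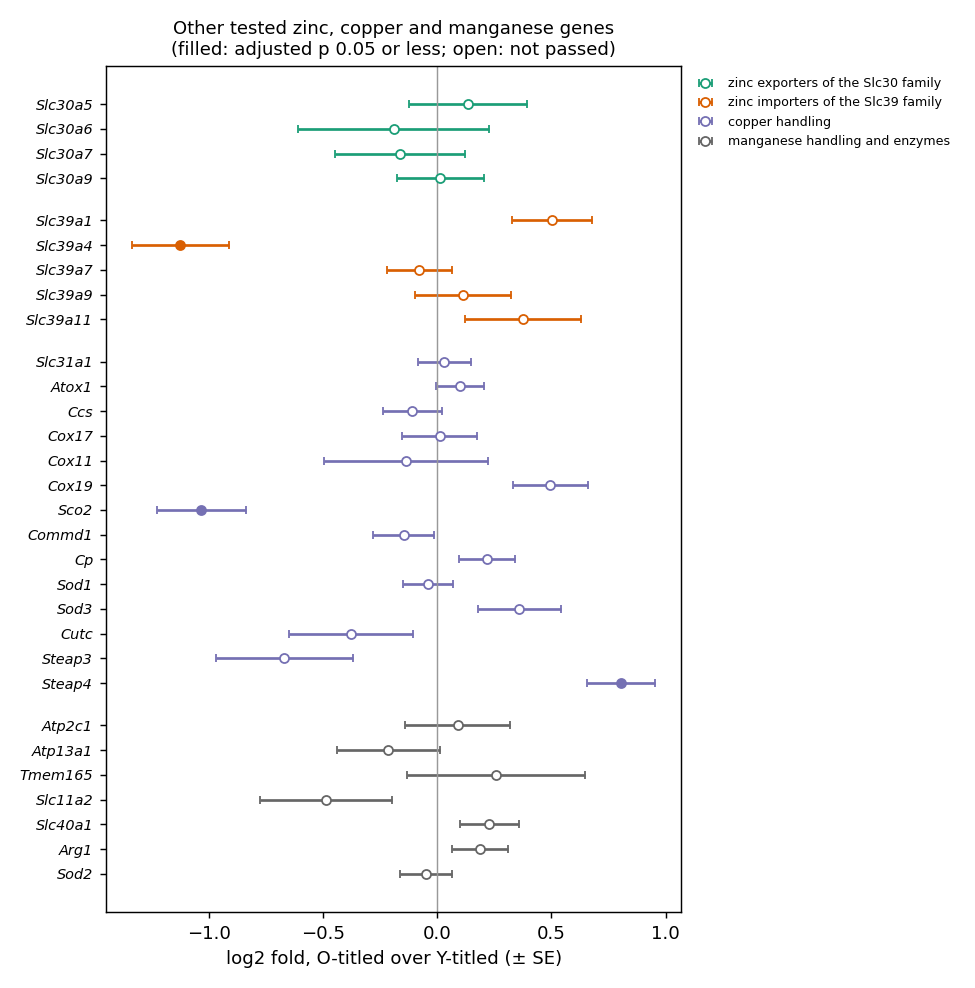
Log2 fold of O-titled over Y-titled livers (horizontal axis, bars ± SE) for the 30 other zinc, copper and manganese genes that were tested, with filled points for those at an edgeR adjusted p of 0.05 or less. The filled points are Slc39a4 at -1.12, Sco2 at -1.03 and Steap4 at 0.81.

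Mtf1, the gene of the zinc sensor, was under the count filter, with 13 and 12 reads in O-titled females and 18 and 6 in O-titled males, against 9 and 10 in Y-titled females and 13 and 7 in Y-titled males, and Mt3 and Mt4 had 0 reads in all libraries. A floor of 3 reads corresponds to between 1.16 and 5.50 CPM of mapped reads, so lower levels were not detectable.

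Genes that answer the other inducers of metallothioneins were read beside them. Of 11 glucocorticoid-responsive genes 9 were tested, and by edgeR 1 rose and 1 fell between O-titled and Y-titled livers, beside 2.09% and 1.92% of all genes (4 at an unadjusted p under 0.05; median log2 fold 0.37). DESeq2 called Per1, and voom called Per1, Klf9 and Sgk1. The clock gene Per1 rose to 18.7 ± 6.00 CPM in O-titled livers, against 6.13 ± 2.66 CPM in Y-titled livers (SD, n = 4 each; log2 fold 1.52, SE 0.35; edgeR adjusted p = 0.0174), a call lost without O-titled replicate 4 (edgeR adjusted p = 0.0722), Y-titled replicate 1 (0.0608) or Y-titled replicate 3 (0.0901). The transcription factor Klf9 fell to 36.4 ± 9.37 CPM in O-titled livers, against 63.2 ± 14.2 CPM in Y-titled livers (log2 fold -0.81, SE 0.21; edgeR adjusted p = 0.0354), and it did not pass by DESeq2 (adjusted p = 0.0594), without O-titled replicate 1 (adjusted p = 0.148) or 3 (0.0946) or without Y-titled replicate 1 (0.0564), 2 (0.0722) or 4 (0.165), with no sex term (0.0737) or thinned to equal depth (log2 fold -0.58, adjusted p = 0.173). Sgk1, a kinase gene, passed by edgeR within females and not over all libraries (log2 fold 1.15, SE 0.33, edgeR adjusted p = 0.0480 within females; 0.87, adjusted p = 0.0539 over all), whereas voom called it over all libraries and neither voom nor DESeq2 called it within females. Between the sexes Fkbp5, a cochaperone of the glucocorticoid receptor, was higher in females, with 30.7 ± 13.1 CPM against 11.8 ± 5.26 CPM in males (log2 fold 1.22, SE 0.26; edgeR adjusted p = 0.0121), and did not pass without O-titled replicate 4 (0.0578) or Y-titled replicate 3 (0.0681). Tat, Pck1, Tsc22d3 and the receptor gene Nr3c1 did not pass over all libraries by any of the 3 tools, with means of 911, 1069, 70.9 and 41.9 CPM in O-titled livers and 683, 1180.1, 65.2 and 32.1 CPM in Y-titled livers. DESeq2, but neither edgeR nor voom, called Tat within females and for the difference between the sexes.

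Of 16 genes that respond to interleukin-6 and STAT3 in hepatocytes 14 were tested, and over all libraries edgeR called 1 higher, beside 2.09% of all genes (4 at an unadjusted p under 0.05; median log2 fold 0.75). DESeq2 called 3 of them, Lcn2, Orm1 and Orm2, and voom called Lcn2. Lcn2, which encodes an iron-chelator-binding acute phase protein, had 361 and 330 CPM in O-titled females and 64.6 and 49.7 CPM in O-titled males, against 11.02 and 20.6 CPM in Y-titled females and 15.1 and 7.92 CPM in Y-titled males (log2 fold 3.58, SE 0.48; edgeR adjusted p = 0.0130), and its adjusted p was 0.0953 without Y-titled replicate 4, 0.0619 with a replicate block and 0.122 with no sex term. Within females Lcn2, Hp, Orm1, Orm2 and Saa1 passed by edgeR, beside 5.47% of all genes, and DESeq2 also called Saa2 and Saa4. Within males Lcn2 passed by edgeR, beside 1.26% of all genes. The acute phase genes Orm2 and Saa1 had log2 folds of 4.51 (SE 0.70, edgeR adjusted p = 0.0466) and 4.73 (SE 0.65, edgeR adjusted p = 0.0334) within females. The title fold of Lcn2, Hp and Orm1 differed between the sexes by edgeR and DESeq2, beside 0.385% of all genes by edgeR. For this difference DESeq2 also called Saa1, Saa2 and Orm2, and voom called Lcn2 and Orm1. The same O-titled females that were highest in Mt1 and Mt2 were highest in Lcn2, Hp, Orm1, Orm2, Saa1 and Saa2. They were not both above the other livers for the remaining tested genes of this list, Saa3, Saa4, Stat3, Lbp, Il6ra, Fga, Fgb and Fgg. Stat3, for example, had 53.2 CPM in O-titled female replicate 4 and 80.8 CPM in Y-titled female replicate 4. The fibrinogen genes Fga, Fgb and Fgg did not pass. The part of either inducer in the metallothionein levels was not tested.

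As a check of the tissue, 11 of 12 hepatocyte marker symbols were found in the files, all with reads, and they summed to 92849 to 118701 CPM of mapped reads in O-titled and 88463 to 134697 CPM in Y-titled livers. Markers of sinusoidal endothelial cells summed to 304 to 395 and 235 to 363 CPM, of stellate cells to 340 to 464 and 264 to 401 CPM, of cholangiocytes to 24.0 to 44.8 and 16.5 to 43.1 CPM, of erythroid cells to 2018 to 2898 and 1664 to 4300 CPM, and of lymphocytes and neutrophils to 16.4 to 79.6 and 18.3 to 96.2 CPM, in O-titled and then Y-titled livers. All markers of the endothelial, stellate, erythroid, and lymphocyte and neutrophil lists had reads. Of the Kupffer markers 0 of 11 tested passed between the title groups by edgeR, beside 4.01% of all genes, and 5 had an unadjusted p under 0.05. DESeq2 called 1 of them, Lyz2, and voom called 0. The log2 fold of all 11 was above 0, with a median of 0.49. Of all 6759 genes tested 3371 had a log2 fold above 0, with a median of -0.00. Dcn of the stellate list and Fcgr2b of the endothelial list were higher in O-titled livers (edgeR adjusted p = 0.00956 and 0.0490). Fcgr2b did not pass by DESeq2 or without any 1 of 6 of the libraries, O-titled replicates 1, 2 and 4 and Y-titled replicates 1, 2 and 3 (adjusted p up to 0.204). Within females the hepatocyte genes Hnf4a (log2 fold -0.57, edgeR adjusted p = 0.0304) and Ttr (-0.55, edgeR adjusted p = 0.0270) were lower in O-titled livers. Voom also called both and DESeq2 called neither. Over all libraries 0 hepatocyte markers passed between the title groups by edgeR, DESeq2 or voom. Alas2 of the erythroid list was lower in females than in males (log2 fold -2.67, edgeR adjusted p = 1.28e-07). The part of these cell types in the transporter values was not tested. Mapped reads ranged from 792004 to 2593200 in O-titled and from 545171 to 1722220 in Y-titled libraries.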

How the data were processed

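Per the labels' protocols, RNA selected on oligo(dT) beads was sequenced directly on R9.4.1 flow cells. The tables deposited by the authors give raw counts, as whole reads for each transcript, together with read lengths per transcript, and the counts of a library sum to the mapped reads its file states, 545171 to 2593200 per library. The submitters' processing notes name minimap2 2.24, the build mm10 and DESeq2, with no role given. How reads fitting more than 1 transcript or overlapping genes were assigned, and whether strand was used, is not given in the sources used here.

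Gene counts are sums over transcripts, and the tests ran in edgeR 4.0.16 (R 4.3.3). Settings were filterByExpr by group at a minimum count of 10, TMM scaling (trimmed mean of M values), robust quasi-likelihood tests with sex as a covariate, and Benjamini-Hochberg adjustment over all 6759 genes at 0.05. A fit with 4 groups of title letter and sex gave within-sex folds and the difference between sexes, with the spread shared by all libraries. Transcript usage was tested with diffSpliceDGE, and DESeq2 1.42.0 and limma 3.58.1 voom were alternatives. The fits were tested on simulated data. P-values measure the spread between animals, 4 per title group. No batch is given in the labels. Gene positions came from GENCODE release M21 on mm10 and promoters from RefSeq on GRCm38.p6.

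The members and all gene lists were chosen with earlier results of these data known. Named genes are all members, every listed gene at an adjusted p of 0.05 or less in a comparison, and up to 4 more per list by abundance; the 3 nearest genes of each member leave out predicted gene symbols, and some listed genes are not reported here.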

Additional observations from a re-analysis of the deposited data

Results flagged for a closer look

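The O-titled over Y-titled log2 fold differed between the sexes for 4 genes on the lists read beside the metal genes, by the test of that difference in edgeR. Of all genes tested 0.385% passed that test. For Hp, haptoglobin, the fold in females exceeded that in males by 1.71 on the log2 scale (SE 0.28, edgeR adjusted p = 0.0175), with 1.71 within females and -0.01 within males. For Lcn2 the difference was 2.27 (SE 0.43, edgeR adjusted p = 0.0179), with 4.44 within females and 2.16 within males. For Orm1, orosomucoid, it was 1.07 (SE 0.22, edgeR adjusted p = 0.0343), with 1.32 within females and 0.26 within males. For Hbb-bt, a beta globin gene of the erythroid list, it was 1.16 (SE 0.24, edgeR adjusted p = 0.0343), with 0.33 within females and -0.84 within males. With 1 library left out in turn, Hbb-bt lost its call in 7 of 8 cases (all but O-titled replicate 3) and Orm1 in 6 (all but replicate 4 of either group), with adjusted p up to 0.251. Hp lost it without O-titled replicate 2 or Y-titled replicate 2, 3 or 4 (up to 0.145) and with voom (0.0929), and Orm1 also with a replicate block (0.0881). For Lcn2 the adjusted p was 0.660 without Y-titled replicate 1 and 0.108 without Y-titled replicate 3. No library stood apart from the other 3 of its title group in any of the 44 groups of 4 that were checked. Groups of 4 by sex were not checked.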

How the results depend on the processing

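The members were chosen from these contrasts, so their values under alternatives are a description. The Slc30a10 log2 fold lay between -2.33 and -1.68 over 15 alternatives. Of 279 values of member folds under alternatives, 262 moved by less than 1 SD of the replicates and 17 by more. Leaving out 1 of 4 libraries cannot move a group mean by 1 SD, so nothing is read from the count of 262. Each member had between 1 and 3 of the 17 larger moves in the difference between the sexes. There the Mt2 value ran from 0.32 to 3.32. The O-titled over Y-titled log2 fold of Slc39a14 changed sign, from -0.08 to 0.26. The Mt1 fold ranged from 0.68 without Y-titled replicate 3 to 1.62 without Y-titled replicate 2, and the Mt2 fold from 0.43 without Y-titled replicate 3 to 1.53 with voom. Over all genes, 271 passed for O-titled against Y-titled livers, 600 with no count filter, 149 thinned to equal depth, 134 with no sex term, and 154 to 294 with a library left out (154 without Y-titled replicate 4, 176 without Y-titled replicate 3). For females against males 200 passed, 401 with no filter, and 125 to 217 with a library left out (125 without O-titled replicate 2, 127 without Y-titled replicate 1). For the difference between the sexes 26 passed, 100 with no filter, and 8 to 45 with a library left out, where the lone sample of an arm is assumed to vary like the others. The causes were not tested. Transcript usage gave 0 genes in all alternatives. Replicate numbers are not stated to mark shared litters or days. After group means the same numbers correlated at 0.22 to 0.41, and after group and sex means at -0.06 and -0.03. O-titled replicates 2, 3 and 4 correlated best with another number. A replicate block gave 184 genes for the title groups and 33 for the difference between the sexes; it ended the calls of Lcn2 (adjusted p = 0.0619) and Fcgr2b (0.0790) between the title groups and of Orm1 for the difference between the sexes (0.0881). Low depth limits Slc30a10 and Atp7b most, with 5 reads in their lowest libraries.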
